A study of Mus musculus with 16 samples.

Results

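The genes described here encode integrins, proteins of the extracellular matrix, the proteases that cut matrix and their inhibitors, and growth factors of wound repair. They are the 49 of the 734 measured genes whose symbol begins with *Adam*, *Mmp*, *Timp*, *Itg*, *Lamb*, *Serpin*, *Vegf*, *Tgfb* or *Col* and a digit, or is *Fn1*, *Ctgf* or *Cyr61*, with the neutrophil collagenase *Mmp8* and the gelatinase *Mmp9* set aside. Among them are 5 integrin alpha chains, 3 integrin beta chains, 10 collagens, 2 laminin beta chains, 5 matrix metalloproteinases (MMPs), *Timp3*, 2 ADAM proteases, 8 ADAMTS proteases, 6 serpins, 2 vascular endothelial growth factors, *Tgfb1* and its co-receptor *Tgfbr3*. Thrombospondins, laminin alpha and gamma chains, *Spp1* and *Vcan* were not analysed here.

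Transcripts were counted on the nCounter system (NanoString, myeloid innate immunity panel) in CD11b+ cells, taken by positive selection from the spleens of 16 wild type C57BL/6 (B6) mice. The 4 groups held 4 mice each. Naive mice were untreated. The mice of the other groups received BALB/c spleen cells, which differ from B6 cells in their transplantation antigens, either with no further treatment, with a single i.p. dose of 150 μg CTLA4-Ig on day 2, or with this dose and recombinant erythropoietin (EPO, 5000 U/kg i.p. daily), and spleens were taken on day 7. CTLA4-Ig is a fusion protein that blocks CD28 costimulation of T cells. There was no group given EPO without CTLA4-Ig. The labels call the injected cells T cell depleted and the route i.p., whereas the paper's text gives an i.v. route and calls the sorted cells CD11b+CD11c-. The age of the mice is not given in the sources used here. In a protocol field of the labels, the letter codes for naive mice and for mice without treatment beyond the injected cells are swapped relative to the sample names, and every comparison of these groups follows the names and treatment fields.

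Integrins are paired receptors, an alpha chain with a beta chain, by which white blood cells hold on to matrix and to other cells. Macrophages both lay down and break down matrix: they secrete fibronectin, cut collagen and elastin with MMPs, and release the growth factors VEGF-A and TGF-beta 1 that steer vessel growth and scarring. Serpins are inhibitors that trap serine proteases, some in the fluid around cells and some, the clade B serpins, mainly inside them.

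The deposited values are log2 of molecule counts multiplied by a single factor per mouse, and total counts lay between 562760 and 912328 per mouse. A difference of 1 on this scale is a doubling. On the deposited scale the median of all genes was 7.26 ± 0.08 in naive mice (SD, n = 4), 6.53 ± 0.04 after BALB/c cells alone, 6.54 ± 0.09 once CTLA4-Ig was added and 6.75 ± 0.06 with CTLA4-Ig/EPO. Differences from naive mice therefore carry a shift of all genes, with a median of -0.65, and changed size with the way the mice were scaled. For that reason each comparison was repeated under 3 further scalings (each mouse centred on its median, quantile normalization, and counts divided by their totals in limma-voom), and genes called in one direction under all 4 are named as such. Calls are limma adjusted *P* values below 0.05 over all 734 genes, two-sided.

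Many of these genes were close to the lowest values the assay records. An average of under 20 counts per mouse was found for 22 of the 49 (44.9%), against 173 of all 734 genes (23.6%). These low genes included 8 of the 10 collagens, 6 of the 8 ADAMTS genes, both laminins, *Timp3*, *Ctgf* and *Cyr61*, and none of the integrins. The median standard error of their log2 differences was 0.40, compared with 0.16 for the 27 more abundant genes. In 4 of them at least 1 mouse had a recovered count of 1, the lowest in the data, which may stand for 0. With EPO, 0 of the 22 low genes and 16 of the 27 others were called (limma, adjusted *P*), beside 51.1% of all genes and 16 of the 173 low genes of the panel (9.25%). At an unadjusted *P* below the same threshold were 2 of the 22, beside 25 of the 173 (14.5%) and 56.9% of all genes of any level.

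**Figure D1:**
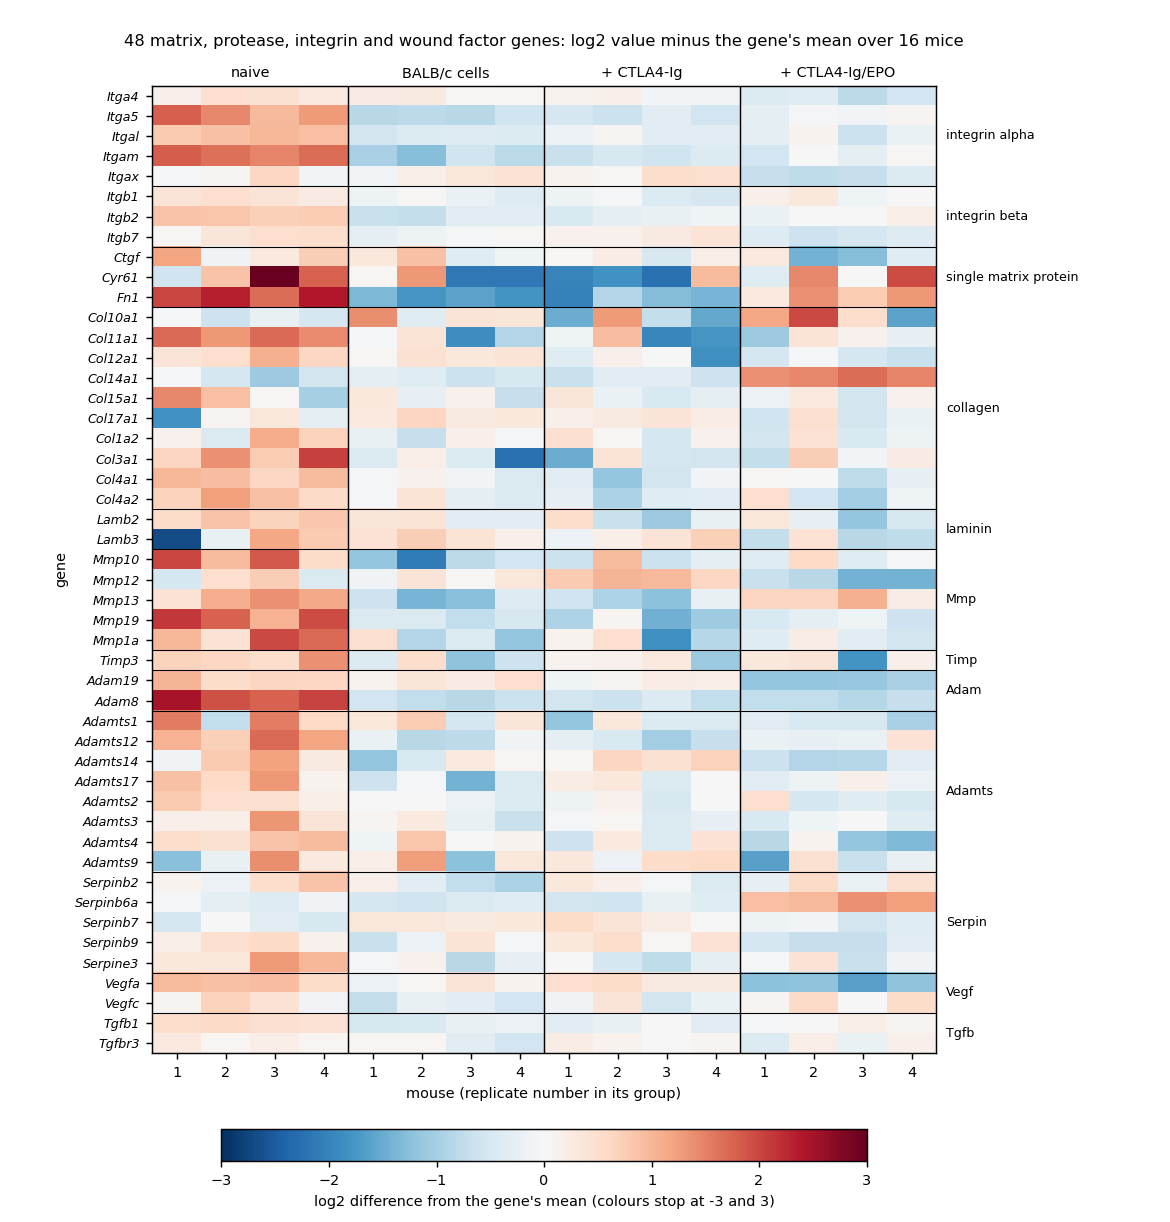
Log2 value of each of 48 of the 49 genes in each of the 16 mice (columns, by group and replicate number) minus the mean of that gene over all mice, with blue for below and red for above the mean. *Fn1* and *Mmp13* are high in naive mice and with EPO, *Col14a1* and *Serpinb6a* are high with EPO alone, and *Vegfa*, *Adam19* and *Mmp12* are low with EPO. The low genes *Cyr61*, *Col10a1* and *Col3a1* vary widely between mice of the same group.

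Expression differed among the 4 groups for 37 of the 49 genes in limma's moderated F-test (75.5%), compared with 85.3% of all genes on the panel. After BALB/c cells alone, 30 of the 49 (61.2%) differed from naive mice on the deposited scale, of which 1 was higher and 29 were lower. The background was 70.3% of all genes, 11.9% higher and 58.4% lower. Their median difference was -0.69, beside -0.65 over all genes. Adding CTLA4-Ig changed 0 of the 49, as it changed 0 of all 734 genes (0%). Adding EPO to CTLA4-Ig changed 16 of the 49 (32.7%), 7 higher and 9 lower, against a background of 51.1% of all genes, 22.8% higher and 28.3% lower. Without adjustment, 33 of the 49 differed from naive mice, beside 72.8% of all genes. Genes that were called with EPO and also differed by at least 2-fold were 8 of the 49 (16.3%), beside 21.1% of all genes.

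**Figure D2:**
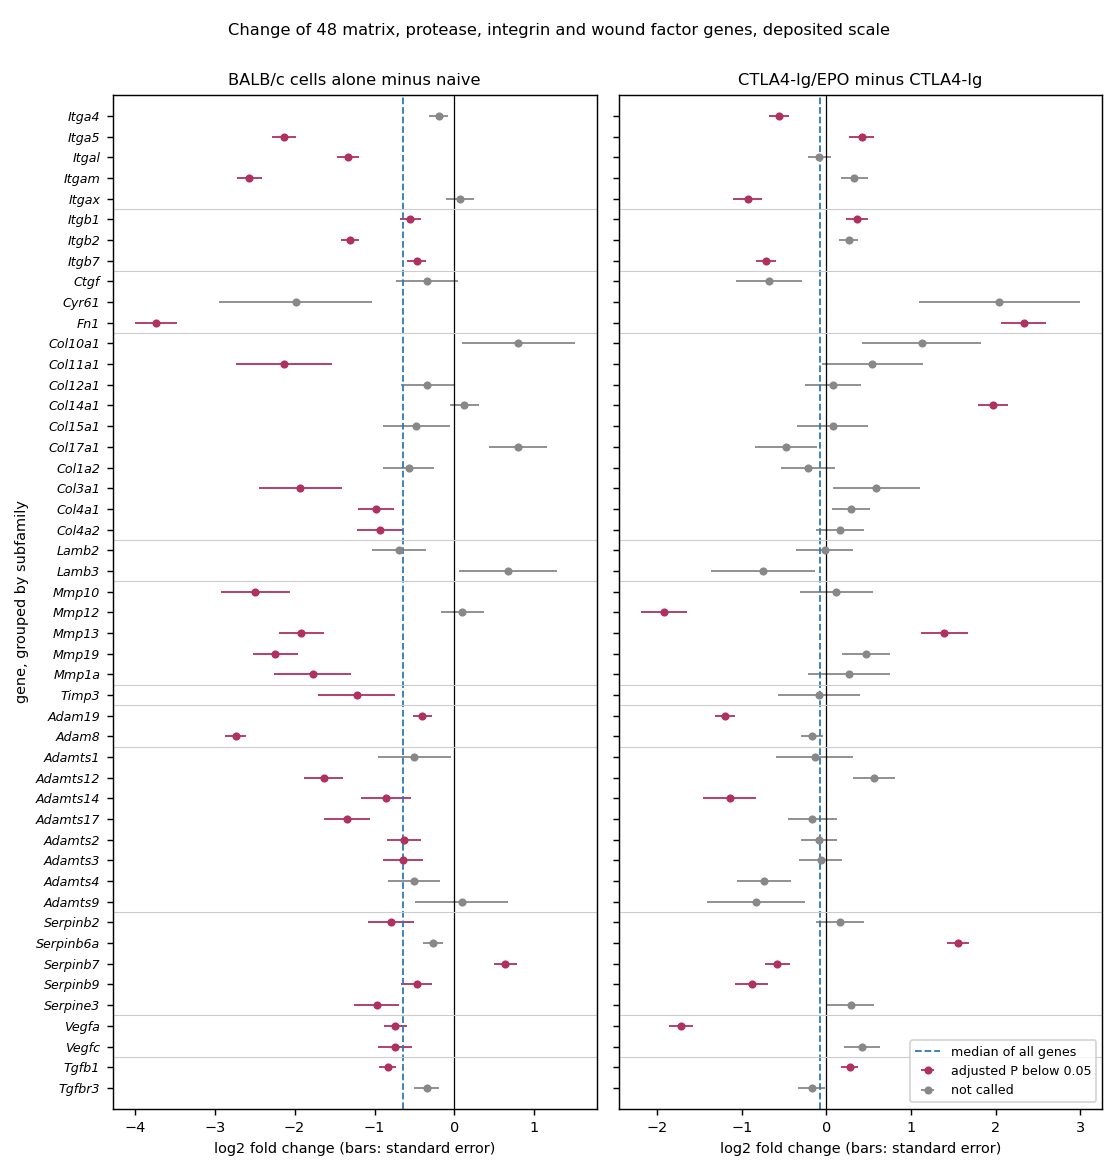
Log2 fold change of each of 48 of the 49 genes (points) with its standard error (bars), for BALB/c cells alone minus naive (left) and CTLA4-Ig/EPO minus CTLA4-Ig (right), on the deposited scale. Red points have an adjusted *P* below 0.05, and the dashed line is the median of all 734 genes, -0.65 on the left and -0.07 on the right. On the left most points lie below 0, and on the right the called genes lie on both sides of it.

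The integrin chains moved in different directions with EPO. *Itgax*, the alpha X chain (CD11c) of many dendritic cells and some macrophages, fell, and so did *Itga4* and *Itgb7*, which pair as the gut homing receptor of lymphocytes, each of the 3 under all 4 scalings. *Itga5* and *Itgb1*, which pair as the classical fibronectin receptor, were higher on the deposited scale by a small margin. *Itgam*, the CD11b chain by which the cells had been selected, and its partner *Itgb2* were not called with EPO on the deposited scale, and were called higher under some of the other scalings. Both were lower after BALB/c cells than in naive mice, *Itgam* by the most of the 8 integrin genes.

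*Itgam* stood at 11.59, 11.41, 11.23 and 11.45 in naive mice, at 8.80, 8.50, 9.16 and 8.95 after BALB/c cells alone, at 9.10, 9.28, 9.16 and 9.36 with CTLA4-Ig and at 9.18, 9.77, 9.48 and 9.79 with CTLA4-Ig/EPO. Every naive mouse was above every other mouse. The mice with CTLA4-Ig overlapped both those given cells alone and those with EPO, and the latter groups did not overlap each other. The difference between BALB/c cells alone and naive mice was -2.57 (standard error 0.16, limma adjusted *P* 2.31e-09), a 5.93-fold lower level, and it was -1.84 after centring and -1.48 with counts divided by totals. With EPO the difference from CTLA4-Ig was 0.33 for *Itgam* (adjusted *P* 0.0881) and 0.26 for *Itgb2* (adjusted *P* 0.0668, and 0.0428 once mice were blocked by replicate number). *Itgam* was called higher with EPO after quantile normalization (0.40, adjusted *P* 0.0178) and with totals (0.43, adjusted *P* 0.0193), and *Itgb2* with totals (0.36, adjusted *P* 0.0381), while after centring the differences were 0.13 and 0.06 and neither was called. Recovered counts of *Itgam* lay between 476 and 2157, so the gene of the selected surface protein was present in every mouse. *Itgal*, the alpha chain of LFA-1 on most white blood cells, differed by -1.34 and *Itgb2*, the beta chain that CD11a, CD11b and CD11c share, by -1.31 on the deposited scale, by -0.61 and -0.58 after centring, and neither was called with totals.

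*Itga5* was 6.41, 6.07, 5.60 and 5.91 in naive mice, 3.79, 3.85, 3.80 and 4.03 after BALB/c cells alone, 4.12, 3.98, 4.33 and 4.06 with CTLA4-Ig, and 4.34, 4.56, 4.56 and 4.71 with EPO. Naive mice were far above the others, and the mice with EPO lay just above those with CTLA4-Ig, without overlap. The fall after BALB/c cells of 2.13 on the log2 scale (adjusted *P* 1.14e-08) was called under all 4 scalings. The rise with EPO of 0.42 (standard error 0.15, adjusted *P* 0.0277) rested on 20 to 42 counts per mouse. It was called with totals (0.51, adjusted *P* 0.0303), and not after centring (0.22, adjusted *P* 0.247) or quantile normalization (0.24, adjusted *P* 0.291). The call was lost when EPO replicate 2, 3 or 4 or CTLA4-Ig replicate 1, 2 or 4 was left out, 6 of the 8 such fits. *Itgb1*, the beta chain of receptors for fibronectin, collagen and laminin, was 11.50, 11.61, 11.51 and 11.36 in naive mice, 10.95, 11.15, 10.92 and 10.74 after BALB/c cells, 10.96, 11.08, 10.71 and 10.60 with CTLA4-Ig, and 11.27, 11.44, 10.98 and 11.10 with EPO. The groups with and without EPO overlapped. Its difference with EPO was 0.36 (adjusted *P* 0.0323), also called with totals (0.46, adjusted *P* 0.0132). It was not called after centring (0.16, adjusted *P* 0.247) or quantile normalization (0.23, adjusted *P* 0.151). Nor was it called in the fits without EPO replicate 1 or 2 or CTLA4-Ig replicate 3 or 4.

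The falls with EPO in the integrin genes were steadier. *Itgax* ranged from 8.11 to 8.62 after BALB/c cells alone and from 8.23 to 8.73 with CTLA4-Ig, and was 7.50, 7.43, 7.50 and 7.79 with EPO. The difference of -0.93 (standard error 0.17, adjusted *P* 0.000405) left no overlap between the groups. *Itgb7* differed by -0.71 (adjusted *P* 0.000174) and *Itga4* by -0.56 (adjusted *P* 0.000848), likewise without overlap. None of the 3 lost its call when any of the 16 mice was left out. T cell genes fell with EPO, as *Itga4* and *Itgb7* did: the 5 measured markers of T cells (*Cd28*, *Ctla4*, *Cd40lg*, *Icos* and *Cd247*) all fell with EPO, from 0.236 to 0.267% of the counts of a mouse to 0.0795 to 0.118%, and the 3 B cell markers fell from 0.558 to 0.617% to 0.308 to 0.437%. Against naive mice the 5 T cell markers were all higher after BALB/c cells alone, from 0.0323 to 0.0768% to 0.245 to 0.310%. On the deposited scale *Itgb7* was lower there (-0.47) and *Itga4* not called (-0.20). With counts divided by totals both were called higher, *Itga4* by 0.89 (limma adjusted *P* 4.71e-05) and *Itgb7* by 0.62 (adjusted *P* 0.00618). *Itga4* was also called higher after centring and quantile normalization, where *Itgb7* was not called. Of the 5 dendritic cell markers measured, 1 rose and 1 fell. The part of these cells in the changes of *Itga4*, *Itgb7* and *Itgax* was not tested, and in bulk RNA fewer cells of a type and less RNA per cell cannot be told apart. Selection of CD11b+ cells is meant to remove T and B cells. One of CD11b+CD11c- cells, as in the paper's text, would also remove cells with CD11c.

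The chains that can pair were then compared within a mouse. Within each mouse, the log2 value of a beta chain was subtracted from that of its alpha chain, which removes the scaling of the mouse. The size of such a difference depends on the probes, and its change between groups does not. *Itga4* minus *Itgb1*, the chains of VLA-4, was -0.13 ± 0.13 in naive mice (SD, n = 4), 0.22 ± 0.11 after BALB/c cells alone and 0.19 ± 0.11 with CTLA4-Ig, and -0.73 ± 0.06 with EPO. *Itgax* minus *Itgb2* was -3.13 ± 0.38, -1.74 ± 0.14, -1.91 ± 0.18 and -3.11 ± 0.13 in the same order. In both pairs the 4 mice with EPO lay apart from the 4 with CTLA4-Ig. *Itga4* minus *Itgb7*, in which both chains fell with EPO, was 2.21 ± 0.26 after BALB/c cells alone, 1.72 ± 0.24 with CTLA4-Ig and 1.87 ± 0.24 with EPO, with overlap (exact permutation *P* 0.429). The permutation did not use replicate numbers, and no mouse with EPO was below the same-numbered mouse with CTLA4-Ig. *Itga5* minus *Itgb1* changed by 0.06 with EPO (exact permutation *P* 0.743). *Itgam* minus *Itgb2* was -0.04 ± 0.10 in naive mice and between -1.30 and -1.10 in the means of the other groups. An exact permutation test of 4 against 4 mice, two-sided, cannot go below 0.0286, which 7 of the differences reached: those with EPO of *Itga4* minus *Itgb1* and *Itgax* minus *Itgb2*, that with CTLA4-Ig of *Itga4* minus *Itgb7* (-0.49), and 4 against naive mice. Over the 18 tests of 6 pairs and 3 comparisons the adjusted value was 0.0735, so none passed the threshold after adjustment. At this floor a pair can pass only if more of the 18 tests reach it, however far apart its groups lie. The adjusted value is therefore no sign that these differences are absent.

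**Figure D3:**
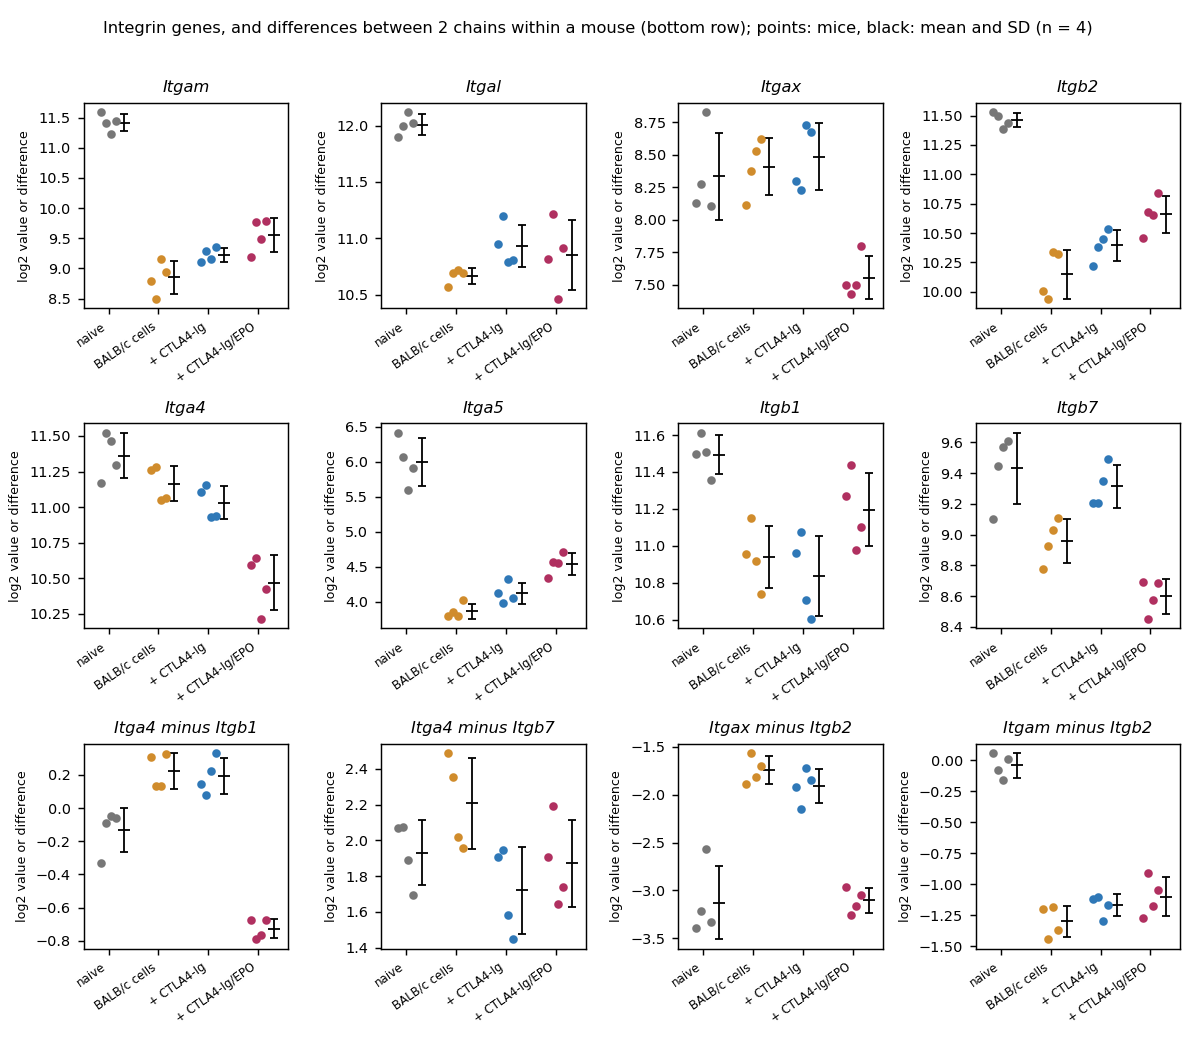
The 8 integrin genes (log2 value, top and middle rows) and the difference between an alpha and a beta chain within a mouse (log2, bottom row), with a point for each mouse and the mean and SD of each group (n = 4) in black. *Itgam* is high in naive mice alone, *Itgax*, *Itga4* and *Itgb7* are low with EPO, and *Itga4* minus *Itgb1* is -0.73 with EPO and 0.19 with CTLA4-Ig.

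*Itgam* and *Itgax* lie next to each other on mouse chromosome 7, with 0 protein-coding genes between them in the RefSeq order, yet the first fell after BALB/c cells and the second did not: *Itgax* differed from naive mice by 0.07 (adjusted *P* 0.714), and by 0.81 after centring (adjusted *P* 0.00242). The promoter of *Itgax*, the integrin chain with the largest difference with EPO, is shown from RefSeq (GRCm38.p6, chr7:128129300-128129599, plus strand, 250 bases before to 50 after the start of the gene). Capitals mark the letters TGANTCA, bound by AP-1 factors, searched on both strands.

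Itgax: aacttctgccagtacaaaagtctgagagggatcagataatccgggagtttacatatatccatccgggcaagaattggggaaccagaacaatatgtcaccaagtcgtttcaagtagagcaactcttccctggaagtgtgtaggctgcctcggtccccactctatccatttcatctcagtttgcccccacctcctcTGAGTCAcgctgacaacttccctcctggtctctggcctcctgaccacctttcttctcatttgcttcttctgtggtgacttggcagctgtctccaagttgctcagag

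The match begins at position -56 from the start. Such a match was found in 7.93% of 27025 mouse promoters of this length, in 9.73% of the 555 genes of the panel with a promoter in the table, and in 6 of the 39 genes described here that had a promoter in the table. It is a description of the letters only.

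Among the matrix proteins, fibronectin and a fibril-associated collagen rose with EPO. *Fn1* encodes fibronectin, the matrix glycoprotein on which wound matrix is assembled and the ligand of the integrin of *Itga5* and *Itgb1*. *Col14a1* encodes collagen XIV, which sits on the surface of collagen fibrils. These were the largest rises with EPO among the 49 genes that were called, and both were called under all 4 scalings and in each fit that left out a mouse.

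*Fn1* stood at 10.85, 11.17, 10.52 and 11.24 in naive mice, at 7.50, 7.07, 7.23 and 7.06 after BALB/c cells alone, at 6.82, 7.97, 7.53 and 7.44 with CTLA4-Ig and at 9.13, 10.22, 9.59 and 10.15 with CTLA4-Ig/EPO. The naive mice were highest, the mice with EPO came next, and both stood clear of the others. After BALB/c cells *Fn1* was 13.3-fold lower than in naive mice (log2 difference -3.73, standard error 0.27, adjusted *P* 1.41e-08), the largest difference of the 49 genes in that comparison, and -3.002 after centring and -2.65 with totals. EPO raised it 5.04-fold over CTLA4-Ig (2.33, standard error 0.27, adjusted *P* 3.77e-06), with a range of 2.12 to 2.55 when each mouse was left out.

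*Col14a1* was 6.25, 5.77, 5.20 and 5.74 in naive mice, 6.04, 5.94, 5.64 and 5.82 after BALB/c cells alone, 5.63, 5.98, 5.97 and 5.67 with CTLA4-Ig, and 7.66, 7.73, 7.98 and 7.77 with EPO. Unlike *Fn1*, it was at a similar level in the 3 groups without EPO and stood apart in the mice with EPO, by recovered counts of 278 to 449 against 71 to 106 with CTLA4-Ig. The difference with EPO was 1.97 (standard error 0.18, adjusted *P* 3.92e-07), 3.92-fold. Its difference between BALB/c cells alone and naive mice was 0.12 (adjusted *P* 0.55), and 0.85 after centring (adjusted *P* 0.000607).

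No other collagen or laminin was called with EPO. *Col11a1*, a minor chain of cartilage fibrils, was 3.89, 3.51, 3.91 and 3.62 in naive mice, 2.13, 2.60, 0.34 and 1.33 after BALB/c cells alone, 2.06, 3.12, 0.24 and 0.42 with CTLA4-Ig and 1.12, 2.61, 2.33 and 1.94 with EPO. *Col3a1*, the chain of collagen III, which makes the reticular fibres of spleen, was 3.21, 3.93, 3.32 and 4.62, then 2.13, 2.77, 2.15 and 0.33, then 1.06, 2.98, 2.05 and 2.00, then 1.85, 3.31, 2.49 and 2.82 in the same order of groups. Both rested on 2 to 18 counts per mouse, with the naive mice above those given BALB/c cells alone. Their differences of -2.13 (adjusted *P* 0.00562) and -1.93 (adjusted *P* 0.00436) were -1.40 and -1.20 after centring, where *Col3a1* was no longer called. *Col4a1* and *Col4a2*, neighbouring genes on chromosome 8 for the chains of basement membrane collagen, differed by -0.98 and -0.93 from naive mice on the deposited scale, and by -0.25 and -0.20 after centring, neither called.

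*Lamb3* encodes a laminin beta chain of epithelial basement membranes. It was 0.89, 3.34, 4.74 and 4.36 in naive mice, 4.00, 4.30, 3.98 and 3.72 after BALB/c cells, 3.39, 3.75, 3.99 and 4.28 with CTLA4-Ig and 2.85, 4.00, 2.75 and 2.82 with EPO. The naive mice spanned all other groups, and no comparison was called on the deposited scale. Against naive mice *Lamb3* was called higher after BALB/c cells under 2 other scalings, quantile normalization (1.52, adjusted *P* 0.0212) and totals (1.69, adjusted *P* 0.00565). The matricellular genes *Ctgf* and *Cyr61*, which stimulate adhesion and scarring, were at 1 to 17 counts in every mouse and were not called. The log2 difference of *Cyr61* with EPO was 2.05 with a standard error of 0.96 (adjusted *P* 0.088).

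Markers of macrophages rose with EPO, as did *Fn1* and *Col14a1*. The 9 measured genes of red pulp macrophages, among them *Cd163*, *C1qa* and *Vcam1*, all rose with EPO. Their summed share of the counts of a mouse was 1.60 to 1.74% with CTLA4-Ig and 4.81 to 7.84% with EPO. It was 0.627 to 1.02% in naive mice and 1.72 to 2.10% after BALB/c cells alone. Shares fall where other genes take more counts, as neutrophil markers did in naive mice (28.0 to 49.9%). Summed as deposited and unlogged, the 9 genes overlapped between naive mice (8175 to 10563) and cells alone (9153 to 11065). *Fn1* was highest in naive mice and next highest with EPO. The summed shares of classical monocyte and neutrophil markers, given with *Adam8*, were higher in naive mice and with EPO than in the other groups. Genes of endothelial and stromal cells, which are the usual makers of collagen, stood at 0.00778 to 0.0162% with CTLA4-Ig and 0.00979 to 0.0124% with EPO, and 0 of the 7 measured were called on the deposited scale (0 also at an unadjusted *P*), and 1 was called lower after centring, as after quantile normalization. After BALB/c cells alone 5 of the 7 were called lower than in naive mice as deposited, as were *Col11a1*, *Col3a1*, *Col4a1* and *Col4a2*. The median of the 7 was -1.13, and 58.4% of all genes were called lower. After centring 1 of the 7 was called lower, beside 26.7% of all genes. The part of such cells in the collagen differences was not tested. Platelet genes rose with EPO for 2 of 3 measured, *Clec1b* by 2.20 and *Pf4* by 1.29, from 0.0161 to 0.0215% of counts to 0.0611 to 0.0673%. No gene of these lists was at the floor in all mice of a group. The part of macrophages, monocytes, neutrophils or platelets in the changes of *Fn1* and *Col14a1* was not tested.

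**Figure D4:**
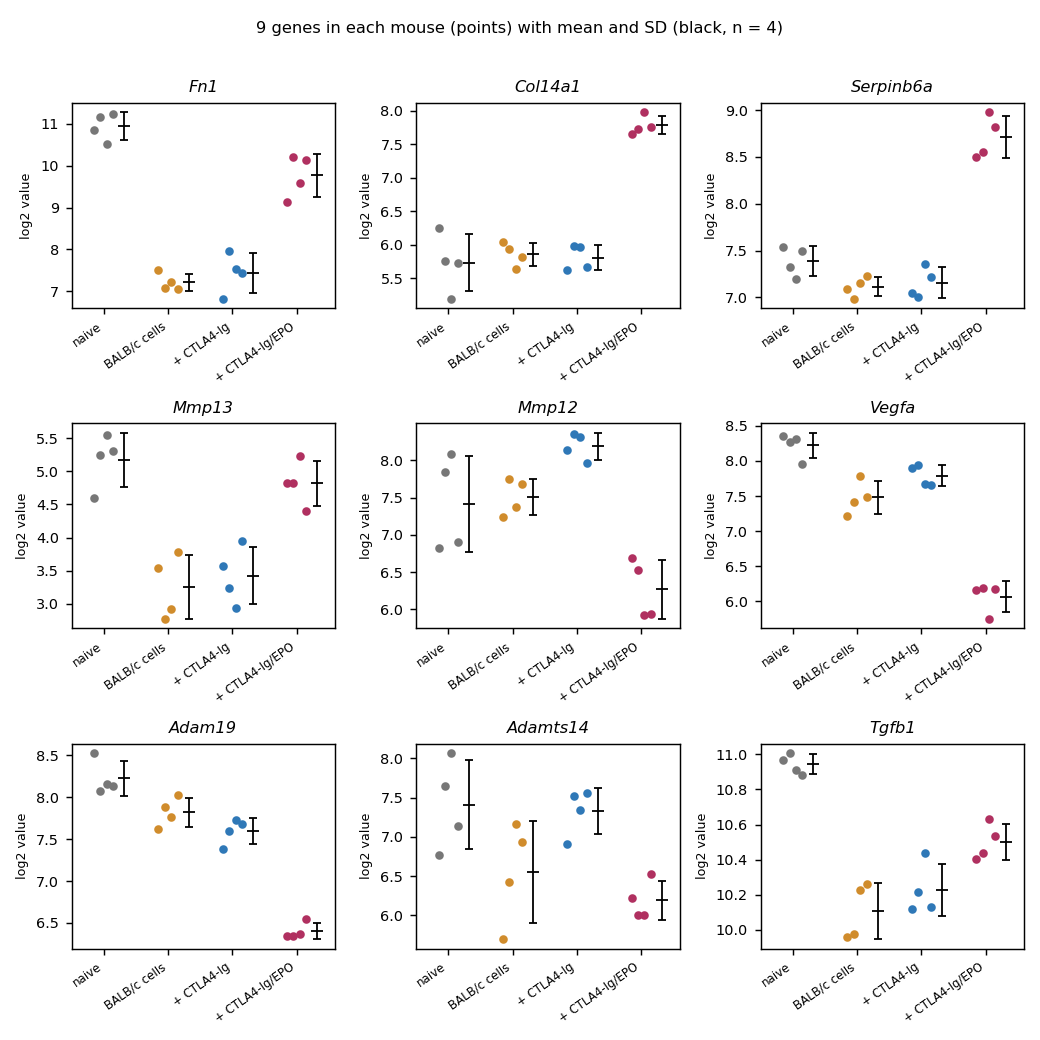
Log2 value of 9 genes in each mouse (points) with the mean and SD of each group in black (n = 4). *Fn1*, *Col14a1*, *Serpinb6a* and *Mmp13* are higher with EPO than with CTLA4-Ig, *Mmp12*, *Vegfa*, *Adam19* and *Adamts14* are lower, and *Tgfb1* overlaps.

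The MMPs split with EPO. *Mmp12*, the macrophage elastase, fell and *Mmp13*, a collagenase of fibrillar collagen, rose, although their genes are neighbours on chromosome 9 with 0 protein-coding genes between them. *Mmp10* (stromelysin-2), *Mmp19* and the collagenase gene *Mmp1a* were not called with EPO, and all 3 were lower after BALB/c cells than in naive mice on the deposited scale.

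*Mmp12* was 6.82, 7.85, 8.09 and 6.91 in naive mice, 7.25, 7.75, 7.38 and 7.69 after BALB/c cells alone, 8.14, 8.36, 8.31 and 7.96 with CTLA4-Ig, and 6.69, 6.53, 5.92 and 5.94 with EPO. The mice with EPO were the lowest of all, and the mice with CTLA4-Ig were above those given cells alone. The fall with EPO was 3.79-fold (log2 difference -1.92, standard error 0.27, adjusted *P* 3.05e-05). The difference of 0.68 between CTLA4-Ig and cells alone had an unadjusted *P* of 0.025 and an adjusted *P* of 0.523. Leaving out any mouse kept the fall with EPO between -2.06 and -1.81.

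*Mmp13* stood at 4.59, 5.25, 5.55 and 5.31 in naive mice, at 3.54, 2.77, 2.92 and 3.79 after BALB/c cells alone, at 3.57, 3.25, 2.94 and 3.94 with CTLA4-Ig and at 4.82, 4.82, 5.23 and 4.40 with EPO. As with *Fn1*, the naive mice and the mice with EPO were above the other groups, and here those 2 groups overlapped. EPO raised it 2.63-fold over CTLA4-Ig (1.39, standard error 0.28, adjusted *P* 0.000696), on 33 to 67 counts against 12 to 23. The fall after BALB/c cells was 1.92 on the log2 scale as deposited (adjusted *P* 2.5e-05) and 1.19 after centring, and with totals the difference of -0.76 was not called (adjusted *P* 0.0686).

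The promoters of both genes are shown because the genes are neighbours that moved in opposite directions. They are from RefSeq (GRCm38.p6, plus strand, 250 bases before to 50 after the start), chr9:7344147-7344446 for *Mmp12* (the first of 2 listed starts) and chr9:7272264-7272563 for *Mmp13*. Capitals mark the AP-1 letters given above, the TATA box (letters TATAAA) and a purine-rich motif with the letters GAGGAAG (an Ets box, which lies on the minus strand of *Mmp12*), each searched on both strands, with 0 overlaps between motifs.

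Mmp12: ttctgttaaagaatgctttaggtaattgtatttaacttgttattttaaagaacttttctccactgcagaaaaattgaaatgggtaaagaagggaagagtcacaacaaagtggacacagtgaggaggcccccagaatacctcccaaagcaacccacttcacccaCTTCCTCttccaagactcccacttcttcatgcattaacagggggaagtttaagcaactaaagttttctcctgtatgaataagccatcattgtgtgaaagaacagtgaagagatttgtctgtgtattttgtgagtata
Mmp13: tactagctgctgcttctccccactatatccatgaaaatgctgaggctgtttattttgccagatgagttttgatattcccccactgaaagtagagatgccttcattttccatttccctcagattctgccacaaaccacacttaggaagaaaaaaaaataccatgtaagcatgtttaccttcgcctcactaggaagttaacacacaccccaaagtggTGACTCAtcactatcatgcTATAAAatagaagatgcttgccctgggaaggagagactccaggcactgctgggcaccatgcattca

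*Mmp13* holds an AP-1 match at position -35 and a TATA box match at -16, and *Mmp12* holds an Ets box match at -87 and neither of the others in this window. Among all 27025 promoters, 14.2% hold TATAAA and 13.5% hold GAGGAAG, and among the 555 of the panel 19.5% and 21.8% do. Of the 39 genes described here with a promoter in the table, 10 (25.6%) and 8 (20.5%) do. These matches are letters in a window and are no test of binding.

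*Mmp10* was 4.70, 3.66, 4.55 and 3.26 in naive mice, 1.54, 0.60, 1.92 and 2.14 after BALB/c cells alone, 2.06, 3.66, 2.05 and 2.42 with CTLA4-Ig and 2.34, 3.31, 2.33 and 2.68 with EPO. *Mmp19*, an MMP of basement membrane and matrix proteins, was 7.06, 6.70, 5.99 and 6.89, then 4.50, 4.51, 4.20 and 4.46, then 4.00, 5.02, 3.49 and 3.88, then 4.49, 4.65, 4.81 and 4.31 in the same order of groups. In both, naive mice stood above the mice given BALB/c cells alone without overlap. The differences of -2.49 (adjusted *P* 0.00013) and -2.24 (adjusted *P* 5.68e-06) were called lower under all 4 scalings, with -1.24 and -1.17 as the smallest sizes. *Mmp10* averaged 8.75 counts per mouse and *Mmp19* 40.9. *Timp3*, a matrix-bound inhibitor of MMPs and ADAM proteases, was 3.21, 3.15, 3.06 and 3.91 in naive mice, 2.13, 3.06, 1.34 and 1.91 after BALB/c cells, 2.65, 2.66, 2.82 and 1.42 with CTLA4-Ig and 2.85, 2.93, 0.75 and 2.68 with EPO. It had 3 to 12 counts per mouse, and its fall after BALB/c cells (-1.22, adjusted *P* 0.0353) was -0.49 after centring, not called.

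The ADAM proteases shed proteins from the cell surface. *Adam8*, found on neutrophils, monocytes and other leukocytes, was 11.21, 10.65, 10.52 and 10.78 in naive mice, 8.17, 8.01, 7.92 and 8.10 after BALB/c cells alone, 8.19, 8.11, 8.34 and 8.0 with CTLA4-Ig, and 8.0, 8.0, 7.89 and 8.06 with EPO. Naive mice were apart from the other groups, which overlapped with each other. It was 6.68-fold lower after BALB/c cells (-2.74, standard error 0.13, adjusted *P* 2.69e-10), called lower under all 4 scalings, and its difference with EPO was -0.17 (adjusted *P* 0.296), called only after centring (-0.38, adjusted *P* 0.0291).

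*Adam19*, which processes membrane proteins such as neuregulins, was 8.53, 8.07, 8.16 and 8.14 in naive mice, 7.62, 7.88, 7.76 and 8.02 after BALB/c cells alone, 7.39, 7.60, 7.73 and 7.68 with CTLA4-Ig and 6.34, 6.35, 6.37 and 6.55 with EPO. The mice with EPO lay far below all others and close to each other. The fall with EPO was 2.29-fold (-1.20, standard error 0.12, adjusted *P* 1.28e-06). Its difference between BALB/c cells and naive mice was -0.40 on the deposited scale and 0.33 after centring, both called, so its direction there depended on the scaling.

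Neutrophil markers were lower after BALB/c cells than in naive mice, as *Adam8* and *Itgam* were. On the deposited scale 4 of the 9 rose with EPO, *S100a8* and *S100a9* among them, which hold most of the summed counts. Of the others, 1 fell (*Il1r2*, by 3.08 on the log2 scale) and 4 were not called (*Csf3r*, *Cxcr2*, *Ly6g* and *Mmp8*). There *Adam8* did not rise and *Itgam* was not called. With counts divided by totals, 7 of the 9 were called higher with EPO and 1 lower. On that scale *Itgam* was called higher (0.43, limma adjusted *P* 0.0193) and *Adam8* was not called (-0.07). The 9 measured markers, among them *S100a8*, *S100a9* and *Csf3r*, made up 28.0 to 49.9% of the counts of naive mice, 2.51 to 6.88% after BALB/c cells alone, 2.78 to 4.89% with CTLA4-Ig and 8.01 to 15.96% with EPO. All 9 were lower after BALB/c cells. The 4 classical monocyte markers measured, *Ccr2* among them, were at 1.71 to 2.11% in naive mice, 0.805 to 1.03% after cells alone, 0.864 to 1.06% with CTLA4-Ig and 1.46 to 2.12% with EPO. *Mmp8* and *Mmp9*, counted here as neutrophil markers, are not among the 49 genes. The part of neutrophils and monocytes in the differences from naive mice was not tested.

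The ADAMTS proteases cut proteoglycans and trim procollagens. *Adamts14*, a procollagen N-proteinase, was 6.77, 7.65, 8.07 and 7.14 in naive mice, 5.69, 6.42, 7.16 and 6.94 after BALB/c cells alone, 6.91, 7.52, 7.34 and 7.55 with CTLA4-Ig and 6.22, 6.00, 6.01 and 6.53 with EPO. The mice with EPO were below those with CTLA4-Ig and overlapped those given cells alone. The fall with EPO was 2.21-fold (-1.14, standard error 0.31, adjusted *P* 0.00695), called under all 4 scalings and the only call with EPO among the 8 genes on the deposited scale. *Adamts12* was 4.48, 4.15, 5.13 and 4.62 in naive mice, 3.25, 2.60, 2.66 and 3.33 after BALB/c cells, 3.18, 2.98, 2.41 and 2.74 with CTLA4-Ig, and 3.23, 3.19, 3.25 and 3.88 with EPO. Its groups with and without EPO did not overlap, at 9 to 23 counts per mouse, yet the difference of 0.56 had an adjusted *P* of 0.0679, and it was called after quantile normalization alone (0.65, adjusted *P* 0.0267). The other procollagen proteinases, *Adamts2* and *Adamts3*, had log2 differences with EPO of -0.09 and -0.07, neither called, and *Adamts4*, an aggrecanase, had -0.73 (adjusted *P* 0.069, and 0.0453 with the replicate block), called after centring (-0.93, adjusted *P* 0.0199).

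Serpins of clade B moved both ways with EPO. *Serpinb6a*, an intracellular inhibitor of serine proteases that include cathepsin G, was 7.53, 7.33, 7.20 and 7.50 in naive mice, 7.09, 6.99, 7.16 and 7.23 after BALB/c cells alone, 7.05, 7.00, 7.36 and 7.22 with CTLA4-Ig, and 8.50, 8.56, 8.98 and 8.82 with EPO. The 4 mice with EPO stood above the 12 other mice. The rise was 2.94-fold (1.56, standard error 0.12, adjusted *P* 1.11e-07), called under all 4 scalings. *Serpinb9*, the inhibitor of granzyme B, fell by 0.88 on the log2 scale with EPO (adjusted *P* 0.00152), from 7.84, 8.06, 7.56 and 7.95 to 7.03, 6.84, 6.84 and 7.18. Both lie on chromosome 13 with 11 protein-coding genes between them.

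*Serpinb7* was the only gene of the 49 called higher after BALB/c cells on the deposited scale. It was 4.35, 4.86, 4.55 and 4.36 in naive mice and 5.19, 5.19, 5.12 and 5.16 after BALB/c cells (0.63, adjusted *P* 0.00137), higher under all 4 scalings, with sizes up to 1.70. With EPO it was 4.70, 4.78, 4.29 and 4.49 against 5.41, 5.25, 5.07 and 4.85 with CTLA4-Ig, without overlap, a difference of -0.58 (adjusted *P* 0.00398). *Serpinb2*, which encodes an inhibitor of plasminogen activators (PAI-2), differed by 0.16 with EPO and was not called.

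*Vegfa* fell with EPO. It encodes VEGF-A, the principal growth factor of blood vessels, which hypoxia induces. *Vegfa* was 8.35, 8.27, 8.31 and 7.95 in naive mice, 7.22, 7.42, 7.79 and 7.49 after BALB/c cells alone, 7.89, 7.95, 7.67 and 7.65 with CTLA4-Ig and 6.16, 6.19, 5.75 and 6.18 with EPO. All 4 mice with EPO lay below the 12 other mice. The fall with EPO was 3.29-fold (-1.72, standard error 0.14, adjusted *P* 1.56e-07), called under all 4 scalings and between -1.77 and -1.61 with each mouse left out. *Vegfc*, the lymphatic growth factor, differed by 0.42 (adjusted *P* 0.121).

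*Tgfb1* encodes TGF-beta 1, which promotes matrix production and restrains T cells. It was 10.97, 11.01, 10.91 and 10.88 in naive mice, 9.96, 9.97, 10.22 and 10.26 after BALB/c cells alone, 10.12, 10.21, 10.44 and 10.13 with CTLA4-Ig and 10.40, 10.44, 10.63 and 10.53 with EPO. Naive mice were the highest, and 1 mouse with CTLA4-Ig reached into the group with EPO. The rise with EPO was 1.21-fold (0.28, adjusted *P* 0.0324). It was called after quantile normalization (0.27, adjusted *P* 0.0394) and with totals (0.38, adjusted *P* 0.0314), and not after centring (0.07, adjusted *P* 0.627). The call was lost without EPO replicate 3 or 4 or CTLA4-Ig replicate 1, 2 or 4. The fall of 0.84 on the log2 scale from naive mice after BALB/c cells was not kept under any other scaling, with differences of -0.11, 0.04 and 0.25. *Tgfbr3*, the co-receptor betaglycan, differed by -0.17 with EPO (adjusted *P* 0.41), and was called lower after centring (-0.37, adjusted *P* 0.0431) and quantile normalization (-0.53, adjusted *P* 0.00093).

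The comparison with naive mice depended on the scaling for the larger share of the genes. Of the 30 calls on the deposited scale 1 was higher and 29 lower. After centring, 21 were called, 10 higher and 11 lower, against 59.7% of all genes, 33% higher and 26.7% lower. With EPO, 16 were called after centring, 4 higher and 12 lower, against 54.8% of all genes, 17.2% higher and 37.6% lower. The 4 scalings gave 24 of the 49 genes the same direction and 25 not. Called lower in all 4 were *Fn1*, *Adam8*, *Itgam*, *Mmp10*, *Mmp19* and *Itga5*, and called higher in all 4 was *Serpinb7*. With EPO the same held for 4 higher genes (*Fn1*, *Col14a1*, *Serpinb6a* and *Mmp13*) and 9 lower genes (*Mmp12*, *Vegfa*, *Adam19*, *Adamts14*, *Itgax*, *Serpinb9*, *Itgb7*, *Serpinb7* and *Itga4*). The 3 called with EPO on the deposited scale and not in all 4 were *Itga5*, *Itgb1* and *Tgfb1*.

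**Figure D5:**
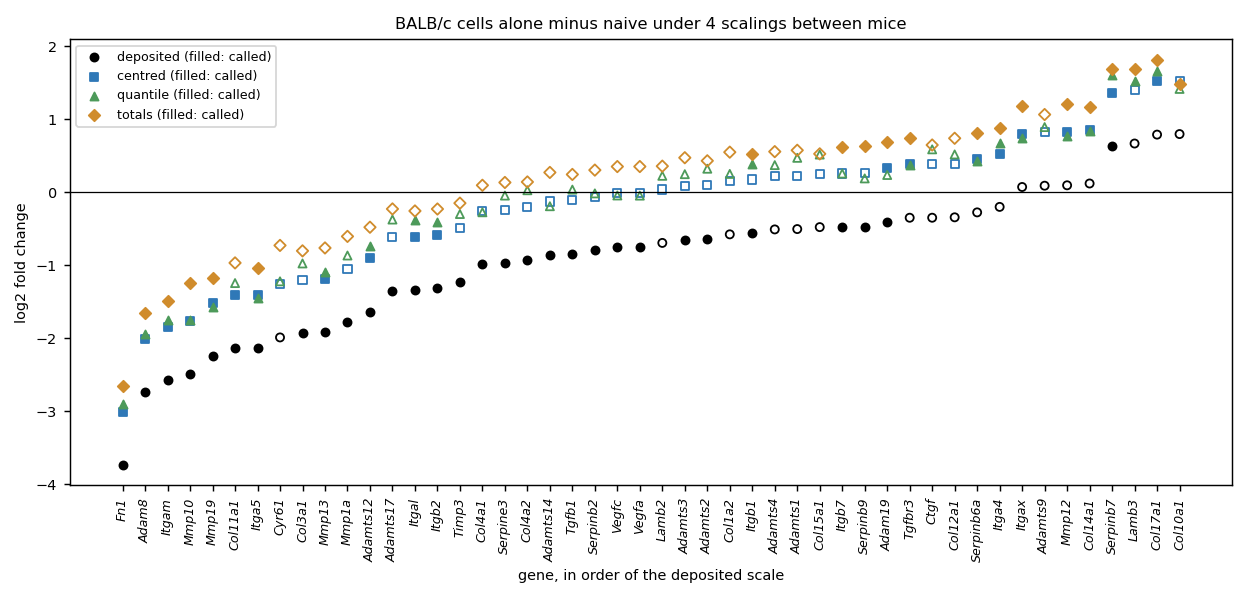
Log2 difference between BALB/c cells alone and naive mice for each of 48 of the 49 genes under 4 scalings between mice (filled symbols are called at an adjusted *P* below 0.05), in order of the deposited scale. The median over all genes is -0.65 as deposited, 0.08 after centring, 0.15 after quantile normalization and 0.44 with totals. *Fn1*, *Adam8* and *Itgam* stay below 0 in each, whereas genes in the middle cross it.

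The step from naive to BALB/c cells and the step from CTLA4-Ig to EPO share no mice, and their calls were set side by side. On the deposited scale 5 genes fell and then rose (*Fn1*, *Mmp13*, *Itga5*, *Itgb1* and *Tgfb1*), 5 fell in both (*Vegfa*, *Adam19*, *Adamts14*, *Serpinb9* and *Itgb7*) and 1 rose and then fell (*Serpinb7*). These are 10.2%, 10.2% and 2.04% of the 49 genes, beside 18.1%, 10.1% and 8.31% of all genes. Centred on medians, *Fn1* and *Mmp13* fell and then rose, *Adam8* fell in both, *Col14a1* and *Serpinb6a* rose in both, and 6 rose and then fell (*Itga4*, *Itgax*, *Mmp12*, *Adam19*, *Serpinb7* and *Tgfbr3*). Of all genes, 8.17% fell and then rose on that scale, 4.36% fell in both, 3% rose in both and 22.8% rose and then fell. *Fn1*, *Mmp13* and *Serpinb7* had the same pattern of calls on both scales. With EPO the mean of *Fn1* was 9.77 ± 0.51 and in naive mice 10.95 ± 0.33, so that it lay between the naive level and that of the other groups.

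CTLA4-Ig by itself left these genes below the threshold. Beside the 0 adjusted calls of limma, 10 of the 49 had an unadjusted *P* below 0.05, 9 higher and 1 lower (*Col12a1*), compared with 9.54% of all genes. The 9 were *Itgam*, *Itgb2*, *Itgb7*, *Mmp10*, *Mmp12*, *Adamts14*, *Adamts17*, *Serpinb9* and *Vegfa*, with log2 differences between 0.25 and 1.00. Groups did not overlap for 3 genes (*Itgal*, *Itgb7* and *Mmp12*), beside 7.36% of all genes, and with EPO for 15, beside 48.8%.

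Other genes of the same systems were read from lists, whose counts stand beside 22.8% of all genes called higher with EPO and 28.3% called lower. Of 4 measured ligands of integrins on cells, 2 rose with EPO: *Vcam1*, the ligand of VLA-4, by 1.72 and *F11r* (JAM-A) by 1.64, while *Icam1*, the ligand of LFA-1, differed by 0.26 (adjusted *P* 0.258). *Vcam1* is also a marker of red pulp macrophages. In the plasminogen system, *Plaur*, the receptor of urokinase, fell by 1.17 on the log2 scale and *Thbd*, which encodes thrombomodulin, rose by 1.11, with *Plau* (urokinase) at -0.11 (adjusted *P* 0.733). Among 9 other matrix and matrix-binding genes, *Lgals3* (galectin-3) alone was called, at 0.46 (adjusted *P* 0.0405). Its call was lost after centring, after quantile normalization, in the fit of 2 groups, with trended moderation and with a 1.5-fold minimum.

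Of 8 other proteases, 5 rose and 2 fell with EPO. The largest rises were those of the granule proteases *Ctsg* (cathepsin G, 3.12) and *Elane* (neutrophil elastase, 2.54), both also markers of granulocyte progenitors, followed by the lysosomal cathepsins *Ctsl* (1.46) and *Ctsd* (1.25). *Dpp4* fell by 0.92 and *Gzma* by 0.85 on the log2 scale. Among 18 growth factors and repair genes, 5 rose and 1 fell, among them *Igf1* (2.10) and *Grn* (1.35), with *Fgf2* at -0.75. After centring 3 of the 18 rose and 3 fell, and after quantile normalization 3 rose and 2 fell. In TGF-beta signalling, 3 of 6 genes fell and 0 rose. The falls were those of *Smad7* (-1.56) and *Skil* (-0.97), 2 inhibitors that TGF-beta itself induces, and of *Smad1* (-0.28).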

How the data were processed

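The authors counted 734 genes on a NanoString panel, normalized the raw counts in limma and deposited log2 values, one column for each mouse. What the normalization refers to is not given in the sources used here. Each deposited log2 value (100%) equalled, to within 0.001, that of a whole count times a factor particular to the mouse, and counts were recovered from this.

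All 16 mice entered one limma model (3.58.1, in R 4.3.3) of group means, with 3 contrasts, the moderated F-test, Benjamini-Hochberg adjustment over all genes, a threshold of 0.05 and no filter. The model was tested on simulated data for the EPO contrast (734 genes, 200 changed): it found 85.5% of the changed genes, and 92% where the change reached 2-fold, with 5.52% false calls. Integrin chains were compared by exact permutation (Python 3.11.15, scipy 1.17.1).

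Genes and lists were chosen with earlier results of these data known. Values in every mouse are given for genes called with a log2 difference of at least 1 and no overlap in any contrast (at most 10 per contrast), for *Itgam* and *Tgfb1*, and for the gene of highest mean in each subfamily otherwise without one. *Itgax*, *Serpinb7* and *Serpinb9* were added after their values were seen. RefSeq (GRCm38.p6) held 47 of the 49 genes by current symbol and 2 by synonym (*Ctgf* and *Cyr61*), and *Fn1* and *Col14a1* had no promoter in the table used. Some results, including the values and figure entries of 1 of the 49 genes, are not reported here.

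Sample names number the mice of a group from 1 to 4. Between CTLA4-Ig and CTLA4-Ig/EPO, deviations of same-numbered mice correlated at 0.143 to 0.183 in all 4 pairs. Differently numbered mice were not compared, so these values do not show whether the numbers pair the mice. The main model took the mice as unpaired, and the numbers entered only as a block in an alternative fit. Counts of mice in a group differed by a chi-square of at least 5.22 per degree of freedom, above sampling noise. Each sample was taken as 1 mouse, and *P* values measure the spread between these samples. The alternatives tried were no adjustment, a minimum of 1.5-fold, separate fits for each contrast, trended robust moderation, array weights, median centring, quantile normalization, limma-voom on counts, dropping the 25% of genes lowest in level, blocking by replicate number, and omitting single mice.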

Additional observations from a re-analysis of the deposited data

Results flagged for a closer look

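In 12 of the 196 sets of 4 values looked at (49 genes in 4 groups), a single mouse lay farther from the others than the 95% critical value of Dixon's test allows. Chance alone gives such a gap in about 5 of 100 sets. Among genes with over 20 counts on average, the mice that stood apart were the ones with *Itgal* at 10.57 (BALB/c spleen cells alone, replicate 1, nearest 10.70), *Mmp19* at 4.20 (BALB/c spleen cells alone, replicate 3), *Adam19* at 6.55 (EPO, replicate 4) and *Vegfa* at 5.75 (EPO, replicate 3, nearest 6.16), all log2 values. The mouse with *Adam19* at 6.55 stayed below each mouse with CTLA4-Ig, and the one with *Vegfa* at 5.75 lay farther from them than the other 3. Among genes under 20 counts they were *Cyr61* at 2.42 (CTLA4-Ig, replicate 4, 8 counts against 1 in the others), *Col4a2* at 2.25 (CTLA4-Ig, replicate 2), *Timp3* at 1.42 (CTLA4-Ig, replicate 4) and at 0.75 (EPO, replicate 3, 3 counts), *Lamb3* at 4.00 (EPO, replicate 2), *Adamts12* at 3.88 (EPO, replicate 4), *Adamts2* at 3.92 (EPO, replicate 1) and *Col17a1* at 4.36 (BALB/c spleen cells alone, replicate 2).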

How the results depend on the processing

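Few counts limit the collagens, laminins, *Timp3* and most ADAMTS genes, for which a difference would have to be large to be called, and the unknown reference of the normalization limits every comparison with naive mice. The 49 genes gave 30 calls against naive mice as deposited (1 higher, 29 lower), and 21 each after centring (10 and 11), quantile normalization (11 and 10) and limma-voom on totals (15 and 6). With EPO the 16 calls (7 and 9) became 16 (4 and 12), 17 and 18 (9 and 9). Of the 49 genes, 17 turned from lower to higher than naive after centring (5 of them called), 19 after quantile normalization (5 called) and 25 with totals (8 called), and the cause was not tested. *Itga4* (centred 0.53, adjusted *P* 0.000581) and *Tgfbr3* (centred 0.39, adjusted *P* 0.0346) were called higher under each of these. Among the genes called against naive mice or given in every mouse, those that turned were, after centring, *Itgb1* (0.18), *Adam19* (0.33), *Serpinb6a* (0.46), *Itgb7* (0.26), *Adamts2* (0.10), *Adamts3* (0.086) and *Serpinb9* (0.26). After quantile normalization they were *Itgb1* (0.39), *Adam19* (0.24), *Serpinb6a* (0.43), *Tgfb1* (0.039), *Itgb7* (0.26), *Col4a2* (0.030), *Adamts2* (0.33), *Adamts3* (0.25) and *Serpinb9* (0.19). With totals they were *Itgb1* (0.53), *Adam19* (0.69), *Adamts14* (0.27), *Serpinb6a* (0.81), *Vegfa* (0.35), *Tgfb1* (0.25), *Itgb7* (0.62), *Col4a1* (0.10), *Col4a2* (0.14), *Adamts2* (0.43), *Adamts3* (0.48), *Serpinb2* (0.31), *Serpinb9* (0.63), *Serpine3* (0.14) and *Vegfc* (0.35). Uncalled differences also turned when a mouse was left out. Against naive mice these were *Col14a1* (-0.057 without naive replicate 3, range up to 0.293), *Lamb3* (-0.14 without naive replicate 1, range up to 1.14) and *Mmp12* (-0.10 and -0.07 without naive replicates 1 and 4, range up to 0.32). With EPO 10 of the 49 genes turned under some scaling, 0 of them called under any. Among those given in every mouse these were *Mmp10* (-0.085 after centring, -0.10 without EPO replicate 2, -0.04 and -0.05 without CTLA4-Ig replicates 1 and 3, range up to 0.49) and *Timp3* (0.019 with array weights, 0.0067 after quantile normalization, 0.43 without EPO replicate 3, and 0.0022, 0.0061 and 0.06 without CTLA4-Ig replicates 1, 2 and 3, with a lowest value of -0.41).

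Leaving out each mouse gave 25 to 31 calls against naive mice, 0 to 0 with CTLA4-Ig, 14 to 18 with EPO and 33 to 39 in the F-test. For the lists with EPO it gave 2 to 3 integrin ligands, 2 to 2 plasminogen genes, 0 to 2 other matrix genes, 7 to 7 proteases, 4 to 7 growth factors and 2 to 3 TGF-beta genes. Calls against naive mice were lost in such fits for *Serpinb9* (8 fits), *Timp3* (5), *Adamts14* (4), *Serpinb2* (4), *Adamts3* (3) and *Adamts2* (2). Unadjusted *P* values gave 10 calls with CTLA4-Ig in place of 0, and removing the lowest 25% of genes left 24 calls in the F-test of 37, on fewer genes. The single call among other matrix genes, *Lgals3*, became 2 with unadjusted *P* values or array weights, and 0 with a 1.5-fold minimum, in the fit of 2 groups, with trended moderation, after centring and after quantile normalization, where the cause was not tested.

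With the replicate number as a block, 32 genes were called against naive mice (2 higher, 30 lower), 0 with CTLA4-Ig, 18 with EPO (8 higher, 10 lower) and 36 in the F-test. The block added *Itgb2* and *Adamts4* to the calls with EPO. Same-numbered naive mice and mice given cells alone correlated at -0.058 to 0.165. Against naive mice the block added *Col17a1*, *Lamb2* and *Serpinb6a* and removed *Serpinb9*. It changed no other call of the 3 contrasts among the 49 genes.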

Other observations

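After BALB/c spleen cells, with mice centred on their medians, *Col17a1*, the collagen that anchors epithelia at hemidesmosomes, was higher than in naive mice by 1.52 (limma adjusted *P* 0.0022), compared with 0.79 as deposited (adjusted *P* 0.0659), on 2 to 29 counts per mouse. *Lamb3*, a chain of the laminin bound there, had a centred difference of 1.40 that was not called (adjusted *P* 0.0675).

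Other marker lists are given with EPO on the deposited scale, where 22.8% of all genes were called higher and 28.3% lower. Granulocyte progenitor genes rose for 3 of 3 measured, eosinophil genes rose for 4 and fell for 1 of 6, and genes of basophils and mast cells rose for 3 and fell for 2 of 7. Genes of NK and cytotoxic cells fell for 3 of 3, and for 1 of 3 with counts divided by totals. Of the 9 myeloid identity genes, 6 rose and 0 fell. *Gata1*, the only gene measured of the 11 listed for erythroid cells, rose by 2.23 on the log2 scale. A single gene does not show a change in those cells. Neutrophil genes rose for 4 and fell for 1 of 9 (7 and 1 with totals), and classical monocyte genes rose for 2 and fell for 1 of 4.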
